A study of Homo sapiens with 6 samples.

Results

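The class II and class IV histone deacetylases were followed in SK-N-BE(2)-C cells, an established human neuroblastoma line, by single-cell RNA sequencing with the Seq-Well S3 method. The 7 genes HDAC4, HDAC5, HDAC6, HDAC7, HDAC9, HDAC10 and HDAC11 were chosen by symbol from the 36601 genes of the deposited matrices, and each symbol matched 1 feature. The 3 groups were cells given the solvent DMSO, cells given TSA (short for trichostatin A in common use, a hydroxamate that blocks the catalytic site of several of these enzymes) and cells given E6R, with 2 libraries in each group. The series title speaks of an inhibitor of histone deacetylase complexes that does not act on the enzyme, and doses, times and the structure of E6R are not given in the sources used here. All groups are the same line, and the labels do not say whether the 2 libraries of a group came from separate cultures, so the p-values measure the spread between these libraries, which may be technical. Cells were barcodes with at least 500 genes and at most 20% mitochondrial UMIs (unique molecular identifiers, 1 per captured transcript).

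Class IIa enzymes (HDAC4, HDAC5, HDAC7 and HDAC9) have little deacetylase activity of their own. They sit on chromatin through partners such as the MEF2 transcription factors, recruit the NCOR-HDAC3 corepressor complex, and leave the nucleus when kinases phosphorylate them and 14-3-3 proteins bind. The class IIb enzyme HDAC6 works mainly in the cytoplasm, where it deacetylates tubulin and binds ubiquitin. HDAC10, also of class IIb, deacetylates polyamines, and HDAC11, the only class IV enzyme, removes fatty-acyl groups. HDAC9 has several transcription starts, of which the later ones lie inside the gene, and its protein products differ in length.

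Sequence upstream of annotated starts is shown for the 3 members that passed a test between TSA and DMSO (HDAC6, HDAC7 and HDAC9). The stretches come from RefSeq on GRCh38.p14, read on the strand of the gene, and are the longest runs without an annotated GENCODE 29 exon of that gene within the 250 bases before a start. Windows were found for 6 of the 7 members, 16 in all, and none for HDAC5. Capitals mark the GC box GGGCGG or its other strand CCGCCC.
HDAC6, chrX:48801148-48801376, plus strand: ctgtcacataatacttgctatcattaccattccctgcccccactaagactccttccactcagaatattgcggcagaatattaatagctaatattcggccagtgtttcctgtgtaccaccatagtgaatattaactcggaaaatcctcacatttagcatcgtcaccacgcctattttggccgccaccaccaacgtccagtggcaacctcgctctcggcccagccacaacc
HDAC7, chr12:47819981-47820153, minus strand: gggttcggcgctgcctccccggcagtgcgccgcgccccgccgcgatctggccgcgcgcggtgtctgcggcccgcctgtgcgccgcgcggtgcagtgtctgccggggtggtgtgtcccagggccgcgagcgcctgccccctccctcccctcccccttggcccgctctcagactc
HDAC9, first start, chr7:18086575-18086824, plus strand: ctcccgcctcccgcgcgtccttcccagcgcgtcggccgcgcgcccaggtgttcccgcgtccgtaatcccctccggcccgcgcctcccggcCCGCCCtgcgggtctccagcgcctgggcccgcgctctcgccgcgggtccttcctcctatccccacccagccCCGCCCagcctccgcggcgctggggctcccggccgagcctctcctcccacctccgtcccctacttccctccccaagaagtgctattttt
HDAC9, a start inside the gene, chr7:18495460-18495709, plus strand: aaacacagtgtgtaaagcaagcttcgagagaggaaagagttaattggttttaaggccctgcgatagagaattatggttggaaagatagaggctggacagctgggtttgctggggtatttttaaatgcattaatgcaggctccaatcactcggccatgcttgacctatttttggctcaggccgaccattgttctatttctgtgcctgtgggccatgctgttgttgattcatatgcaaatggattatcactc

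The HDAC7 stretch lies inside the GENCODE 29 span of the gene (47782722 to 47833132), so it precedes an inner start and not the outermost one. Its 173 bases were 79.2% G+C with 24 CpG dinucleotides and no GC box. At the first HDAC9 start, the 250 bases were 75.2% G+C with 32 CpG and 2 GC boxes, whereas the inner HDAC9 start had 44.0% G+C, 4 CpG and no GC box. The HDAC6 stretch of 229 bases was 48.0% G+C with 9 CpG and no GC box. Counted over full windows of 250 bases, the HDAC6 window at this start held 1 GC box and its other windows 2 and 3, the HDAC7 window held 0, and the first HDAC9 window held 2. Of 35116 RefSeq windows of 250 bases, 42.6% held a GC box, and their median G+C was 58%. The full windows of these 3 members held no E-box (CACGTG, the same on both strands), which 6.34% of all windows held. They also held no TATA box (TATAAA, searched on both strands) and no MEF2 site, against 10.7% and 2.80% of all windows. The UMI counts are summed over each gene and do not tell which start was used.

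The 6 libraries held 17589 cells, from 1861 to 3946 per library, with 4206366 to 26180262 UMIs in cells and a median of 1053.5 to 1880 UMIs per cell. Both DMSO libraries had the fewest UMIs, so values of DMSO rest on less depth. Mitochondrial genes took 5.83% and 6.20% of UMIs in DMSO cells, 6.08% and 9.71% in TSA and 1.55% and 1.51% in E6R, so E6R lay below both other groups. The 1% of cells with most UMIs held 8.77% to 15.6% of the UMIs in 5 libraries and 22.5% in E6R replicate 2. The part of either in the differences of the members was not tested. Pairs of libraries shared 11 to 58 cell barcodes, 0.351% to 2.11% of the smaller library. All 10 neuroblastoma markers (among them MYCN, DBH and CHGA) had UMIs in every library, with a summed level of 3363 and 3657 CPM in DMSO, 3573 and 4182 CPM in TSA and 3375 and 5723 CPM in E6R. Of the 10, none was higher and 3 were lower in TSA than in DMSO, 30% against 29.7% of all tested genes. In E6R against TSA, 4 were higher and none lower, 40% against 38.2% of all tested genes. Both shares were thus near those of all genes. None passed in E6R against DMSO, as 0% of all genes did. Of 6 markers of other cell types, 2 to 5 had a UMI in a library, and CD3E was at 0 in 5 of 6 libraries. Their summed level was 22.9 and 4.59 CPM in DMSO, 4.33 and 2.35 CPM in TSA, and 29.4 and 1.13 CPM in E6R, nearly all of it PECAM1 in the higher libraries.

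Levels are given as CPM, the usual depth-scaled UMI count, from the summed cells of a library after TMM scaling. They are not divided by transcript length, so levels of different genes are not compared. A summed library cannot tell fewer expressing cells from less RNA per cell. All 7 members passed the filter on low counts, and 16763 genes were tested in 1 edgeR quasi-likelihood fit over the 6 libraries. Adjusted p-values are Benjamini-Hochberg values over those genes, with a threshold of 0.05, and fold changes are given with their standard error (SE).

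TSA against DMSO asks which of these genes moved under an inhibitor of enzymatic activity. HDAC7 and HDAC9 fell, HDAC6 rose, and HDAC4, HDAC5, HDAC10 and HDAC11 did not pass the test. The share of all tested genes that passed was 29.7% (16.2% higher, 13.5% lower), against 3 of the 7 members (1 higher, 2 lower). The CPM of the 2 groups did not overlap for any of the 7 members, 4 above and 3 below DMSO, and 71.3% of all tested genes also did not overlap (36.7% above, 34.6% below). The median log2 fold change was 0.28 over the members and -0.01 over all tested genes. E6R against DMSO called none of the 7 members, as it called 0% of all genes by edgeR at an adjusted p under 0.05. At an unadjusted p under 0.05, 1 member passed (HDAC9), against 2913 of all 16763 tested genes. DESeq2 called 0 members and 338 of the 16763 genes. The gene lists below have this same background in E6R against DMSO. Groups did not overlap for 5 of the 7 members (2 above, 3 below), against 47.3% of all genes (24.6% above, 22.7% below), and the medians were -0.14 for the members and 0.03 for all genes. E6R against TSA, which sets the 2 agents side by side, called 4 of 7 members (HDAC7 and HDAC9 higher, HDAC6 and HDAC11 lower), against 38.2% of all genes (18.7% higher, 19.5% lower). Groups did not overlap for 5 of 7 members there (2 above, 3 below), against 72.6% of all genes (33.7% above, 38.9% below), with medians of -0.12 and -0.09. The comparisons with DMSO share the same control libraries, and both comparisons of TSA share the TSA libraries.

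**Figure D1:**
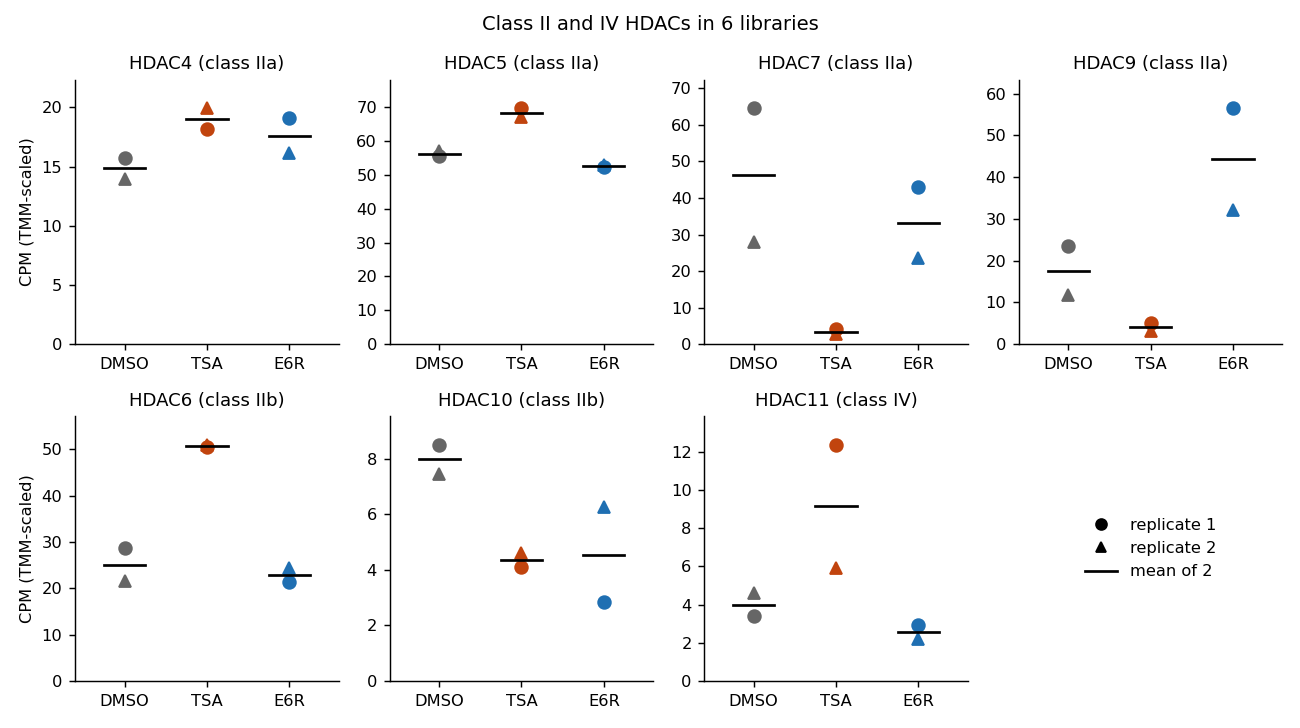
CPM of the 7 members in the 6 libraries, with 1 panel per gene, 1 point per library and a line at the mean of each group. HDAC7 lies at 2.79 and 4.10 CPM in the TSA libraries and at 23.5 CPM or more in all others, while HDAC6 lies at 50.6 and 51.0 CPM in TSA and at 28.7 CPM or less elsewhere.

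HDAC7 (chr12:47782722-47833132, minus strand, GRCh38, GENCODE 29, protein coding), a class IIa enzyme best known in endothelial cells and thymocytes, had the largest fall of the 7 in TSA. Its level was 64.6 and 27.9 CPM in DMSO, 4.10 and 2.79 CPM in TSA, and 42.9 and 23.5 CPM in E6R. Both TSA libraries lay below all others, and the DMSO and E6R libraries overlapped, replicate 1 being the higher in each. The mean fell from 46.3 ± 25.9 (SD, n = 2) in DMSO to 3.44 ± 0.930 CPM (SD, n = 2) in TSA, a log2 fold change of -3.74 (SE 0.51, edgeR adjusted p = 0.00239), or 13.3-fold. With E6R the mean was 33.2 ± 13.7 CPM (SD, n = 2), a log2 fold change from DMSO of -0.48 (SE 0.44, edgeR adjusted p = 0.605). Against TSA, HDAC7 was 9.56-fold higher in E6R (log2 3.26, SE 0.49, edgeR adjusted p = 0.00222). Both calls held in each of the 20 alternative settings, with log2 values of -4.46 to -2.97 for TSA against DMSO and 2.83 to 3.66 for E6R against TSA. The difference between E6R and DMSO had no stable sign when 1 library was left out, running from -0.92 to 0.39. It was -0.92 without DMSO replicate 2 and 0.39 without DMSO replicate 1.

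SLC48A1, a heme transporter on the opposite strand, overlaps HDAC7, and whether counting used strand is not given in the sources used here. SLC48A1 stood at 19.8 and 36.9 CPM in DMSO, 34.7 and 30.8 CPM in TSA, and 19.8 and 32.6 CPM in E6R (TSA against DMSO log2 0.21, edgeR adjusted p = 0.682). The order of its libraries differed from that of HDAC7, with DMSO and TSA overlapping. PECAM1, an endothelial adhesion gene, was at 21.7 and 1.15 CPM in DMSO, 3.42 and 1.83 CPM in TSA, and 27.7 and 0.376 CPM in E6R. The 2 libraries with high PECAM1 were thus DMSO replicate 1 and E6R replicate 1, which were also those with the higher HDAC7 and HDAC9 in their groups. The part of the cells or RNA that carry PECAM1 in the spread of HDAC7 and HDAC9 was not tested.

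HDAC9 (chr7:18086949-19002416, plus strand), a class IIa enzyme known for repressing MEF2 targets in muscle and neurons, fell in TSA, and in E6R it was the highest of the 3 groups. Its level was 23.6 and 11.7 CPM in DMSO, 5.01 and 3.05 CPM in TSA, and 56.5 and 32.1 CPM in E6R. The 3 groups did not overlap, with TSA below DMSO and DMSO below E6R. The mean fell from 17.6 ± 8.43 CPM in DMSO to 4.03 ± 1.39 CPM in TSA (SD, n = 2 each), a log2 fold change of -2.12 (SE 0.46, edgeR adjusted p = 0.0125), or 4.34-fold. In E6R the mean was 44.3 ± 17.3 CPM (SD, n = 2), 2.52-fold the DMSO level, a log2 fold change of 1.33 (SE 0.43) that did not pass the test. In edgeR the unadjusted p was 0.0145 and the adjusted p was 0.218. Within replicate 1 the ratio of E6R to DMSO was 2.40 and within replicate 2 it was 2.75. HDAC9 was 10.9-fold higher in E6R than in TSA (log2 3.45, SE 0.46, edgeR adjusted p = 0.00144), and this call held in all 20 alternative settings.

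The fall of HDAC9 in TSA kept its direction throughout but missed the threshold in edgeR without DMSO replicate 1 (log2 -1.49, adjusted p = 0.0827), without TSA replicate 1 (-2.50, adjusted p = 0.0512) and without TSA replicate 2 (-1.77, adjusted p = 0.108). The difference between E6R and DMSO passed in 1 of the 20 settings, without the filter on low counts (log2 1.497, edgeR adjusted p = 0.000996), and ranged from 0.95 to 2.06 over all 20, with adjusted p from 0.000996 to 0.672.

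HDAC5 (chr17:44076746-44123702, minus strand), a class IIa enzyme widely expressed in neurons, varied little. It stood at 55.5 and 57.2 CPM in DMSO, 69.7 and 67.0 CPM in TSA, and 52.4 and 53.0 CPM in E6R. Both TSA libraries were the highest and both E6R libraries the lowest, by small margins. The log2 fold change was 0.28 in TSA (SE 0.18, edgeR adjusted p = 0.269) and -0.10 in E6R (SE 0.18, edgeR adjusted p = 0.815), and with scaling by total counts alone the TSA value turned to -0.03.

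HDAC4 (chr2:239048168-239401654, minus strand), a class IIa enzyme known as a MEF2 repressor in muscle and bone, stood at 15.7 and 13.96 CPM in DMSO, 18.2 and 19.9 CPM in TSA, and 19.1 and 16.1 CPM in E6R. TSA and E6R libraries overlapped, and both lay above DMSO. Neither difference passed the test, at log2 0.36 in TSA (SE 0.26, edgeR adjusted p = 0.313) and 0.24 in E6R (SE 0.25, edgeR adjusted p = 0.649). HDAC4 and HDAC5 thus gave no call in any of the 3 comparisons, while HDAC7 and HDAC9 gave 4 calls between them.

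HDAC6 (chrX:48801377-48824982, plus strand), the tubulin deacetylase, rose in TSA. Its level was 28.7 and 21.6 CPM in DMSO, 50.6 and 51.0 CPM in TSA, and 21.3 and 24.3 CPM in E6R. Both TSA libraries lay above the other 4, and the DMSO and E6R libraries overlapped. The mean was 25.1 ± 4.999 CPM in DMSO and 50.8 ± 0.304 CPM in TSA (SD, n = 2 each), a log2 fold change of 1.02 (SE 0.23, edgeR adjusted p = 0.0147), or 2.02-fold. With E6R it was 22.8 ± 2.13 CPM (SD, n = 2), log2 -0.14 from DMSO (SE 0.23, edgeR adjusted p = 0.788), and E6R was 2.23-fold below TSA (log2 -1.15, SE 0.23, edgeR adjusted p = 0.00601). No annotated gene overlaps HDAC6.

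The rise of HDAC6 missed the threshold in 5 of 20 settings. With scaling by total counts alone the edgeR log2 value was 0.70 (adjusted p = 0.0599). That scaling moved the median of all genes to -0.32, and relative to the median HDAC6 was at 1.02 under it and at 1.03 under TMM. In cells thinned to 1000 UMIs the edgeR value was 0.73 (adjusted p = 0.101). Leaving out 1 library, edgeR gave 0.75 without DMSO replicate 2 (adjusted p = 0.115), and 1.05 without either TSA replicate 1 (adjusted p = 0.0813) or TSA replicate 2 (adjusted p = 0.0875). HDAC6 in E6R against TSA missed it only without TSA replicate 2 (log2 -1.15, edgeR adjusted p = 0.052).

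HDAC10 (chr22:50245183-50251405, minus strand), the polyamine deacetylase, has been described in neuroblastoma cells for its part in autophagy. It had 39 to 166 UMIs in a library. Its level was 8.50 and 7.46 CPM in DMSO, 4.10 and 4.61 CPM in TSA, and 2.84 and 6.25 CPM in E6R. DMSO lay above both other groups, which overlapped each other. The log2 fold change was -0.87 in TSA (SE 0.46, edgeR adjusted p = 0.189) and -0.80 in E6R (SE 0.46, edgeR adjusted p = 0.399). Leaving out E6R replicate 1 moved the value in E6R to -0.24, and leaving out E6R replicate 2 moved it to -1.44. HDAC10 overlaps the kinase gene MAPK12 on the same strand, so its reads could be divided between them and its values are uncertain. MAPK12 itself fell in TSA, from 34.6 and 22.8 CPM in DMSO to 12.5 and 9.66 CPM (log2 -1.37, SE 0.29, edgeR adjusted p = 0.0115), and stood at 28.9 and 32.4 CPM in E6R (log2 0.10 from DMSO, edgeR adjusted p = 0.883).

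HDAC11 (chr3:13479724-13506424, plus strand), the fatty-acyl hydrolase of class IV, had 16 to 163 UMIs in a library. It stood at 3.40 and 4.59 CPM in DMSO, 12.4 and 5.92 CPM in TSA, and 2.91 and 2.22 CPM in E6R. All 3 groups were apart, with TSA highest and E6R lowest, though the TSA libraries differed from each other by more than the other groups did. The log2 fold change in TSA was 1.19 (SE 0.49, edgeR adjusted p = 0.0995) and in E6R -0.65 (SE 0.49, edgeR adjusted p = 0.526), so neither passed. The value in TSA was 0.59 without TSA replicate 1 (edgeR adjusted p = 0.562), and that in E6R was -0.37 without DMSO replicate 2 and -0.42 without E6R replicate 2. E6R was 3.58-fold below TSA (log2 -1.84, SE 0.47, edgeR adjusted p = 0.0178), which missed the threshold in cells thinned to 1000 UMIs (-1.60, adjusted p = 0.156) and without TSA replicate 1 (-1.20, adjusted p = 0.192). The antisense gene HDAC11-AS1 had 1 UMI in all libraries together.

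**Figure D2:**
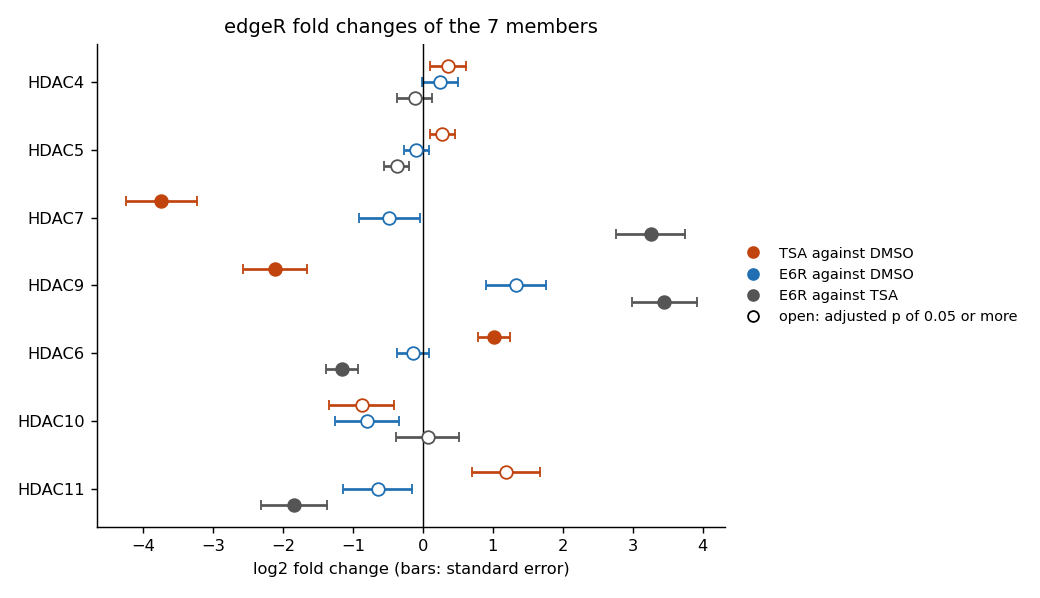
Log2 fold changes of the 7 members in the 3 comparisons, with 1 SE to each side and filled points for an edgeR adjusted p under 0.05. HDAC7 and HDAC9 are at -3.74 and -2.12 in TSA against DMSO and at 3.26 and 3.45 in E6R against TSA, and no point is filled in E6R against DMSO.

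The summed level of the 7 genes differed little between groups, while its make-up differed. The sum was 199.9 and 144 CPM in DMSO, 164 and 154 CPM in TSA, and 198 and 157 CPM in E6R. The groups overlapped, with means of 172 ± 39.3, 159 ± 6.93 and 178 ± 28.7 CPM (SD, n = 2 each). Class IIa summed to 135 ± 34.4 CPM in DMSO, 94.9 ± 3.03 CPM in TSA and 148 ± 32.7 CPM in E6R (SD, n = 2 each). Class IIb summed to 33.1 ± 5.73, 55.2 ± 0.666 and 27.3 ± 4.54 CPM in the same order. For scale, the class I enzymes HDAC1, HDAC2, HDAC3 and HDAC8 summed to 336 ± 42.1 CPM in DMSO, 572 ± 21.0 CPM in TSA and 458 ± 33.8 CPM in E6R. These sums were not tested.

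As a share of the UMIs of the 7 genes in a library, HDAC7 made up 32.3% and 19.3% in DMSO, 2.5% and 1.81% in TSA, and 21.7% and 14.9% in E6R. HDAC9 made up 11.8% and 8.08% in DMSO, 3.06% and 1.98% in TSA, and 28.6% and 20.4% in E6R. HDAC6 made up 14.3% and 15.0% in DMSO, 30.8% and 33.1% in TSA, and 10.8% and 15.4% in E6R. TSA stood apart from both other groups for these 3 genes, and E6R stood apart from DMSO for HDAC9. The shares of HDAC4, HDAC5, HDAC10 and HDAC11 in TSA were also apart from DMSO, as were those of HDAC10 and HDAC11 in E6R. Shares within a library are tied to each other, since a lower share of 1 gene raises those of the others. They are thus not separate results for each of the 7 genes. Before TMM scaling, HDAC5 in cells was at 62.0 and 62.4 CPM in DMSO and 64.3 and 57.7 CPM in TSA, which overlapped. HDAC5 held 42.5% and 43.4% in TSA, its highest shares, against 27.7% and 39.6% in DMSO and 26.5% and 33.6% in E6R. Means for HDAC9 were 9.94 ± 2.63% in DMSO and 24.5 ± 5.76% in E6R (SD, n = 2 each). With 2 libraries against 2, the exact permutation test (two-sided) cannot give a p below 0.333. It gave that value for all 7 genes in TSA against DMSO, and for HDAC9, HDAC10 and HDAC11 in E6R against DMSO. No share can thus pass a threshold in this design.

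**Figure D3:**
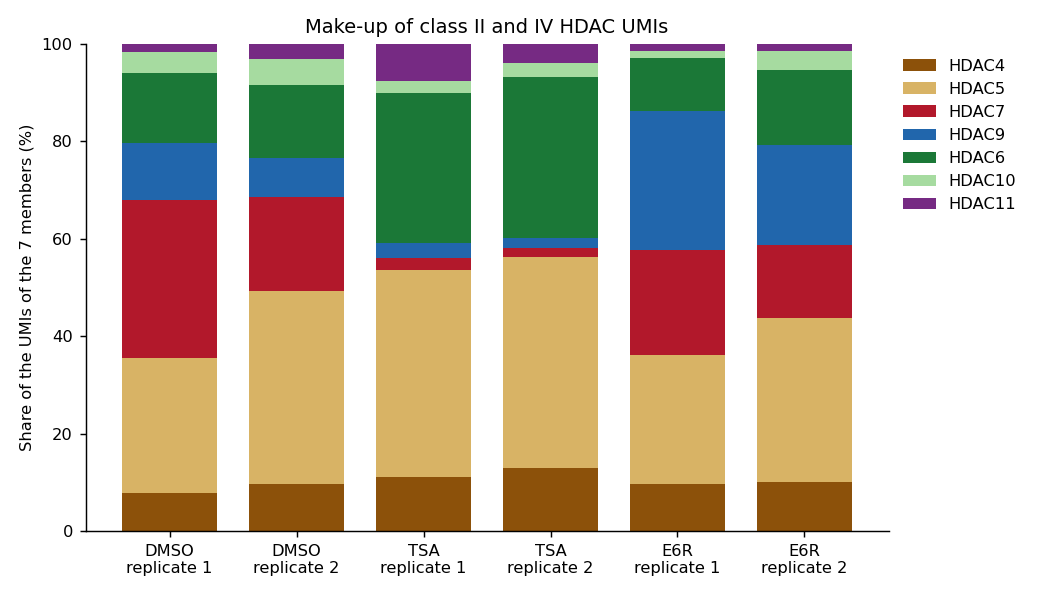
Share of each member among the UMIs of the 7 genes, in percent, as stacked bars with 1 bar per library. HDAC7 shrinks to 2.5% and 1.81% in the TSA bars, HDAC6 reaches 30.8% and 33.1% there, and HDAC9 reaches 28.6% and 20.4% in the E6R bars.

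Per cell, UMIs of these genes were few, and the share of cells with a UMI depends on depth. Each cell was therefore thinned to 1000 UMIs, which kept 1187 and 1682 cells in DMSO, 1852 and 2789 in TSA, and 2199 and 2228 in E6R, and left out 503 to 1718 shallower cells per library. HDAC7 was then found in 6.99% and 2.68% of cells in DMSO, in 7 of 1852 (0.378%) and 2 of 2789 (0.0717%) in TSA, and in 3.73% and 2.24% in E6R. TSA lay below all others, and E6R and DMSO overlapped. HDAC9 was found in 2.44% and 1.43% of cells in DMSO, 0.162% and 0.251% in TSA, and 3.96% and 3.50% in E6R, so that the 3 groups did not overlap. Without thinning, HDAC7 was found in 12.7% and 4.05% of cells in DMSO, 1.99% and 0.911% in TSA, and 14.6% and 9.58% in E6R. Unthinned HDAC9 was at 5.16% and 1.82% in DMSO, 2.51% and 0.911% in TSA, and 17.4% and 10.8% in E6R, so that without thinning DMSO and TSA overlapped.

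HDAC6 was found in 3.37% and 2.73% of thinned cells in DMSO, 3.40% and 4.70% in TSA, and 2.18% and 2.51% in E6R. TSA replicate 1 was thus barely above DMSO replicate 1, a smaller gap than in CPM. HDAC5 was found in 4.73% to 6.48% of thinned cells in all 6 libraries, with the groups overlapping. HDAC4, HDAC10 and HDAC11 were found in at most 1.73%, 1.26% and 1.19% of thinned cells in any library. A UMI of any of the 7 genes was found in 20.1% and 14.9% of thinned cells in DMSO, 12.9% and 12.3% in TSA, and 15.9% in both E6R libraries. UMIs of at least 2 members were found in 0.466% to 1.35% of thinned cells. Intervals on such shares cover counting error only. All libraries are of 1 cell line, so no share in a cell type lacking these genes was available as a measure of free RNA.

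**Figure D4:**
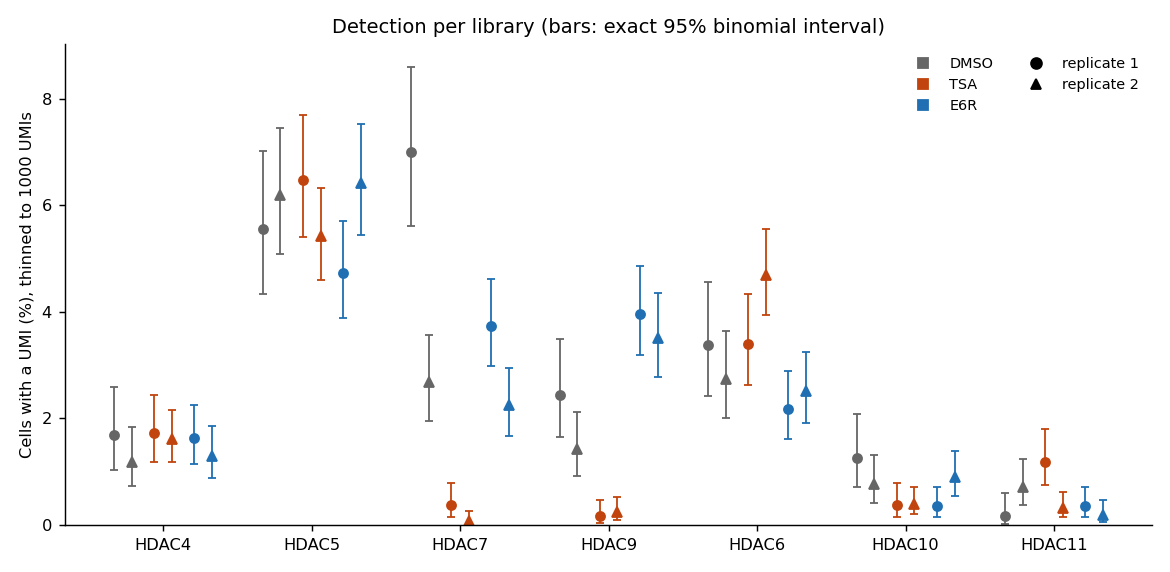
Share of cells with at least 1 UMI of each member after thinning each cell to 1000 UMIs, in percent, 1 point per library, with a 95% exact binomial interval for counting error. For HDAC7 the TSA points are at 0.378% and 0.0717% and the others at 2.24% or more, and HDAC9 is highest in E6R at 3.96% and 3.50%.

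Few cells held many UMIs of a member. The most in 1 cell was 28, for HDAC9 in E6R replicate 2, where the 10 cells with most HDAC9 held 15.3% of its UMIs. The differences were then read within bins of depth. Cells of each library were split by UMIs into 3 bins of equal size (lowest, middle and highest), an alternative added after seeing the data. CPM without TMM scaling was taken in each bin. The bins were cut inside each library, so they do not match depth between groups. Median UMIs per cell in the highest bin were 3095.5 and 2053 in DMSO, 10316.5 and 5180 in TSA, and 9353 and 6287 in E6R. HDAC7 was below DMSO in TSA in all 3 bins, with no overlap, at log2 ratios of means of -4.98, -4.48 and -3.97. HDAC9 was below DMSO in TSA in all 3 bins (-1.84, -3.85 and -2.24) and above DMSO in E6R in all 3 (1.06, 0.86 and 1.31), again with no overlap. The TSA values of the lower bins rest on few counts. HDAC7 had 1 and 2 UMIs in the lowest bin of the TSA libraries and 5 and 3 in the middle bin. HDAC9 had 5 and 3, and 4 and 2. The size of these ratios is thus imprecise and is not compared between bins. The share of all genes without overlap within bins is not given here. HDAC6 in TSA lay above DMSO in the middle (0.90) and highest (0.64) bins and overlapped DMSO in the lowest (0.45).

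**Figure D5:**
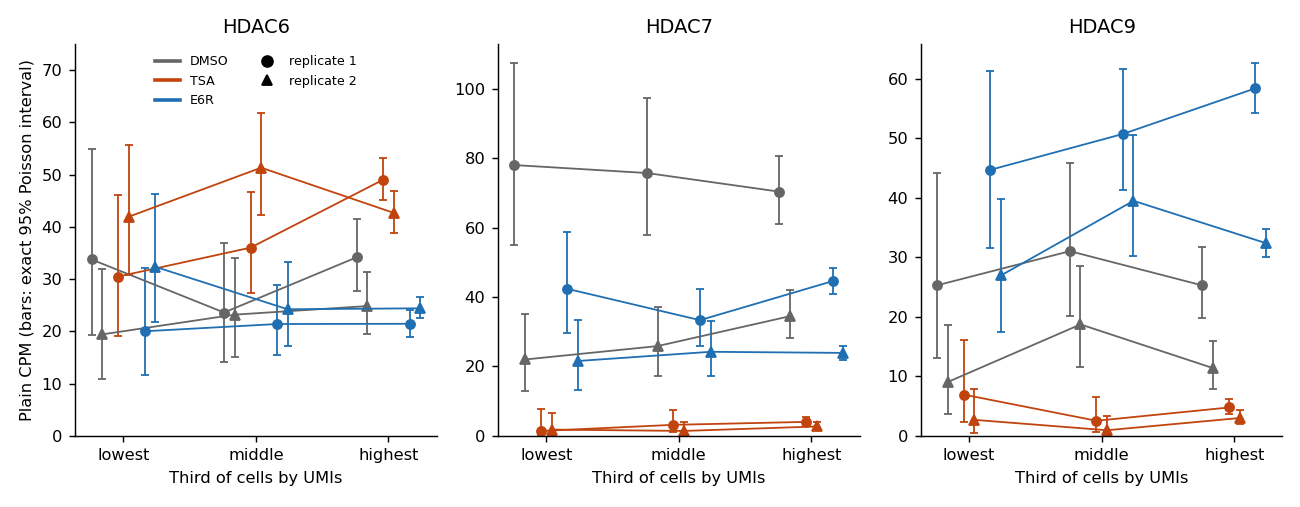
CPM without TMM scaling within 3 equal bins of cells ordered by UMIs, on a linear axis from 0, for HDAC6, HDAC7 and HDAC9, with 1 line per library and a 95% exact Poisson interval for counting error. HDAC7 in TSA lies between 1.39 and 4.01 CPM in every bin, against 21.6 CPM or more in DMSO and E6R, and HDAC9 in E6R lies above the DMSO libraries in each bin.

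Barcodes with under 500 genes, which may hold small cells or free RNA, were read separately. In these barcodes HDAC7 was at 62.6 and 29.6 CPM in DMSO, 4.45 and 3.16 CPM in TSA, and 51.5 and 24.1 CPM in E6R, before TMM scaling. In cells on the same scale it was at 72.3 and 30.5, 3.78 and 2.40, and 43.0 and 23.8 CPM. HDAC7 was thus lower in TSA in both kinds of barcode. Other members differed more between them: HDAC10 in E6R replicate 1 was at 9.17 CPM in the small barcodes and 2.85 CPM in cells, and HDAC11 in DMSO replicate 1 was at 7.99 and 3.80 CPM. In the small barcodes HDAC4 and HDAC5 in TSA lay below DMSO (log2 ratios of means -0.66 and -0.37). In cells on the same scale TSA and DMSO overlapped for both genes. HDAC4 was at 17.6 and 15.2 CPM in DMSO and 16.7 and 17.2 CPM in TSA. HDAC5 was at 62.0 and 62.4 CPM in DMSO and 64.3 and 57.7 CPM in TSA. In cells both genes lay above DMSO in TSA only after TMM scaling. The cause of the differences between small barcodes and cells was not tested, and the share of a cell's UMIs that came from free RNA was not tested.

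Genes most like a called member were sought by the root mean square difference in log2 CPM, centred over the 6 libraries. The nearest to HDAC6 among 7515 genes were UAP1L1 (0.0569) and EEF1D (0.0647, a translation elongation factor subunit). EEF1D stood at 746 and 585 CPM in DMSO, 1449 and 1481 CPM in TSA, and 609 and 638 CPM in E6R. The nearest to HDAC7 were ITPRIPL2 (0.283) and TBX2 (0.338, a T-box transcription factor), and TBX2 stood at 208 and 163 CPM in DMSO, 19.6 and 18.6 CPM in TSA, and 204 and 145 CPM in E6R. The nearest to HDAC9 were C11orf96 (0.228) and NSG1 (0.239, an endosomal protein of neurons), and NSG1 stood at 98.8 and 31.2 CPM in DMSO, 14.6 and 9.49 CPM in TSA, and 146 and 84.3 CPM in E6R. For HDAC11, among 3003 genes of like level, they were TMEM86A (0.167) and FAM160A2 (0.186). The measure grows with a gene's own range over the libraries, so its values are not compared between members, and no test was made of these likenesses.

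Among 13 partners of class IIa enzymes, 3 rose and 3 fell in TSA against DMSO, 46.2% against 29.7% of all tested genes, with a median log2 fold change of 0.12 against -0.01 over all tested genes. MEF2B, a MEF2 transcription factor, rose from 2.96 ± 1.22 to 19.8 ± 0.905 CPM (SD, n = 2 each, log2 2.74, edgeR adjusted p = 0.00288), and MEF2D rose from 13.9 ± 3.10 to 33.7 ± 4.68 CPM (log2 1.28, edgeR adjusted p = 0.0330). GPS2, a corepressor subunit, rose (log2 1.31, edgeR adjusted p = 0.0167). The members of the corepressor complex that fell were TBL1XR1, from 114 ± 24.8 to 29.7 ± 8.85 CPM (log2 -1.94, edgeR adjusted p = 0.00342), TBL1X (-1.23, adjusted p = 0.0420) and NCOR1, from 157 ± 5.57 to 74.8 ± 3.59 CPM (-1.07, adjusted p = 0.00503). The complex thus held members that rose and members that fell.

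In E6R against TSA, 3 of the 13 partners were higher and 4 lower (53.8% called, against 38.2% of all tested genes; median 0.23, against -0.09 over all genes). TBL1XR1 (log2 2.64, edgeR adjusted p = 0.000798), TBL1X (1.39, adjusted p = 0.0205) and NCOR1 (0.98, adjusted p = 0.00445) were higher, and MEF2B (-3.90, adjusted p = 0.000549) and MEF2D (-1.03, adjusted p = 0.0492) were lower. MEF2C passed too, on few counts, with 23 and 10 UMIs in TSA and 1 and 0 in E6R. Its ratio of depth-scaled UMIs in TSA to E6R was 50.2, with a 95% exact counting interval of 8.40 to 2041. In E6R against DMSO none of the partners passed by edgeR (4 at an unadjusted p under 0.05, 0 by DESeq2), with MEF2D at log2 0.25 (adjusted p = 0.758) and NCOR1 at -0.08 (adjusted p = 0.835).

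Of 24 kinases, phosphatases, 14-3-3 and export genes that govern the nuclear export of class IIa enzymes, 22 were tested, and 4 rose and 3 fell in TSA, 31.8% against 29.7% of all tested genes (median log2 -0.10 against -0.01). PRKACA, the catalytic subunit of protein kinase A, rose from 47.8 ± 4.26 to 186 ± 16.0 CPM (log2 1.96, edgeR adjusted p = 0.00177), and the salt-inducible kinase SIK2 rose from 26.8 ± 1.28 to 95.5 ± 16.2 CPM (1.83, adjusted p = 0.00267). The calcium/calmodulin kinases CAMK2D (log2 -1.52, edgeR adjusted p = 0.00462) and CAMK4 (-1.51, adjusted p = 0.00297) fell. Between E6R and TSA, 8 were higher in E6R and 5 lower (59.1% against 38.2% of all tested genes, median 0.33), with CAMK2D at 1.83 (edgeR adjusted p = 0.00145), CAMK4 at 1.80 (adjusted p = 0.00103), SIK2 at -2.31 (adjusted p = 0.000753) and PRKACA at -1.75 (adjusted p = 0.00145). Against DMSO, E6R gave 0 calls of the 22 by edgeR (5 at an unadjusted p under 0.05, 1 by DESeq2).

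Of 9 known MEF2 target genes, 4 rose and none fell in TSA (44.4% called, against 29.7% of all tested genes). The median log2 was 1.35 against -0.01. DESeq2 called 3 of the 9, and 5349 of all 16763 tested genes. NR4A1, an orphan nuclear receptor and early response gene, rose from 11.4 ± 6.40 to 55.2 ± 1.97 CPM (log2 2.28, edgeR adjusted p = 0.00430), and PCDH17, a protocadherin, rose from 97.0 ± 61.7 to 395 ± 22.9 CPM (2.03, adjusted p = 0.0430). E6R against TSA had none higher and 5 lower (55.6% against 38.2% of all tested genes, median -1.19), among them NR4A1 (log2 -1.98, edgeR adjusted p = 0.00384) and ARC, a synaptic early response gene (-1.92, adjusted p = 0.00188). For E6R against DMSO edgeR called 0 (0 at an unadjusted p under 0.05 and 0 by DESeq2). Many of these genes also respond to other factors.

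Among 19 genes around HDAC6, 4 rose and 1 fell in TSA, 26.3% against 29.7% of all tested genes (median log2 0.38 against -0.01). DESeq2 called 9 of the 19, and 5349 of all 16763 tested genes. TPPP, a microtubule-binding inhibitor of HDAC6, rose from 1.17 ± 1.05 to 17.5 ± 0.651 CPM (log2 3.86, edgeR adjusted p = 0.00643). The tubulin TUBA4A rose from 8.13 ± 6.09 to 71.3 ± 6.96 CPM (3.12, adjusted p = 0.00777), and TUBA1B fell from 1059.8 ± 91.5 to 654 ± 17.0 CPM (-0.70, adjusted p = 0.0311). Alpha-tubulin genes are near-identical in their coding parts, so these values are uncertain. SIRT2, another tubulin deacetylase, rose from 50.2 ± 0.113 to 113.6 ± 24.8 CPM (log2 1.18, edgeR adjusted p = 0.0121), and ATAT1, the acetyltransferase of tubulin, was at 5.50 ± 1.83 and 6.36 ± 1.85 CPM (0.21, adjusted p = 0.740). E6R against TSA gave 2 higher and 6 lower (42.1% against 38.2% of all tested genes, median -0.37): TUBA1B (log2 1.30, edgeR adjusted p = 0.00222) and TUBA1A (0.92, adjusted p = 0.0142) higher, and TPPP (-4.63, adjusted p = 0.00184), TUBA4A (-3.19, adjusted p = 0.00414) and SIRT2 (-2.11, adjusted p = 0.000991) among the lower. E6R against DMSO gave 0 edgeR calls (4 at an unadjusted p under 0.05, 2 by DESeq2), with SIRT2 at 26.3 ± 6.93 CPM (log2 -0.93, adjusted p = 0.205) and ATAT1 at -0.16 (adjusted p = 0.881).

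Among 12 genes of polyamine metabolism and of the substrates of HDAC11, 4 rose and none fell in TSA. This was 33.3% against 29.7% of all tested genes (median log2 0.60 against -0.01). DESeq2 called 6 of the 12, and 5349 of all 16763 tested genes. SAT1, which acetylates spermidine and spermine, rose from 24.9 ± 9.25 to 269 ± 44.6 CPM (log2 3.43, edgeR adjusted p = 0.00114). PAOX, which oxidises acetylated polyamines, rose from 0.712 ± 0.195 to 7.67 ± 2.47 CPM (3.42, adjusted p = 0.00554). SHMT2, a defatty-acylation substrate of HDAC11, was at 92.5 ± 8.01 CPM in DMSO and 127 ± 12.8 CPM in TSA (0.46, adjusted p = 0.111). In E6R against TSA 2 were higher, the polyamine synthases SRM (log2 0.90, edgeR adjusted p = 0.0346) and SMS (0.74, adjusted p = 0.0136), and 6 lower, among them SAT1 (-3.05, adjusted p = 0.000798) and PAOX (-2.80, adjusted p = 0.00442). These 8 were 66.7% of the list, against 38.2% of all tested genes. SHMT2 was at -0.10 there (adjusted p = 0.702). With E6R against DMSO edgeR called 0 (3 at an unadjusted p under 0.05, 1 by DESeq2), with PAOX at log2 0.62 (adjusted p = 0.633) and SHMT2 at 0.36 (adjusted p = 0.377).

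Among 10 other deacetylases (class I and the sirtuins other than SIRT2), 3 rose and none fell in TSA, a share of 30% that was close to the 29.7% of all tested genes (median log2 0.46 against -0.01). HDAC3, the catalytic partner that class IIa enzymes recruit, rose from 39.1 ± 7.20 to 112 ± 12.3 CPM (log2 1.52, edgeR adjusted p = 0.00262), and the nucleolar sirtuin SIRT7 rose from 35.9 ± 1.53 to 139.5 ± 14.2 CPM (1.96, adjusted p = 0.00174). In E6R against TSA SIRT5 (log2 1.23, edgeR adjusted p = 0.0197) and HDAC8 (0.71, adjusted p = 0.0390) were the 2 that were higher, and 3 were lower, among them SIRT7 (-2.29, adjusted p = 0.000592) and HDAC3 (-1.70, adjusted p = 0.00105). These 5 were 50% of the list, against 38.2% of all tested genes. In E6R against DMSO edgeR called 0 (1 at an unadjusted p under 0.05, 0 by DESeq2). The rise of HDAC3 and HDAC6 and the fall of HDAC7 and HDAC9 in TSA were each measured against the same 2 DMSO libraries.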

How the data were processed

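The deposited values were whole-number UMI counts per gene and barcode, made by the authors with STARsolo 2.7.9a on GRCh38, per the submitters' processing notes. Counts of barcodes with at least 500 genes and at most 20% MT- UMIs were summed per library. No doublet caller was run. The sums were fitted with edgeR 4.0.16 (R 4.3.3; TMM, filterByExpr, quasi-likelihood test, group as the only term, all 6 libraries), with Benjamini-Hochberg adjustment over 16763 genes. DESeq2 1.42.0, other scalings, filters, cell thresholds, thinned counts, a replicate block and each library left out were tried as alternatives, 20 per member. The fit was run on simulated counts with known changes, as a check of the code. Those counts had less spread between libraries and fewer changed genes than these data, so the check gives no error rate for them. CPM in depth bins and in barcodes under 500 genes was computed without TMM, and both were added after seeing the data.

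The members and the gene lists were chosen with earlier results of these data known. Named were the 7 members, genes overlapping them, per list and comparison the 2 largest and 2 smallest called log2 fold changes, and MEF2D, NCOR1, ATAT1, SIRT2, PAOX and SHMT2 in any case. Genes like a member needed a mean of 20 CPM, or, for HDAC11, which is itself under 20 CPM, a mean from 0.5 to 2 times its own. PECAM1 was named after its values were seen. Some genes that the rule names are not reported here. Total UMIs in cells (4206366 to 26180262) limit the precision of low genes.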

Additional observations from a re-analysis of the deposited data

Results flagged for a closer look

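HDAC9 was also higher in E6R than in DMSO in barcodes with under 500 genes, which the comparisons leave out. Its mean there was 45.3 CPM in E6R (57.2 and 33.5 CPM) against 20.2 CPM in DMSO (26.6 and 13.8 CPM), on counts without TMM scaling, so the groups did not overlap. In cells on the same scale HDAC9 was at 56.7 and 32.6 CPM in E6R and 26.4 and 12.7 CPM in DMSO, close to the small barcodes of each library. These barcodes come from the same libraries and may hold free RNA, so they are no separate support for the difference. In cells it did not pass the test (edgeR adjusted p = 0.218). No test was made on these barcodes, and the share of all genes without overlap in them is not given here.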

How the results depend on the processing

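Of the called members, HDAC7 passed in all 20 alternatives of both comparisons with TSA, and HDAC9 in all 20 of E6R against TSA. The other losses are given beside the results. HDAC5 turned to -0.031 in TSA against DMSO with total counts only. In E6R against DMSO without the low-count filter, HDAC5 was at 0.070 and HDAC6 at 0.024, and 1095 genes and 1 member (HDAC9) were called. Other counts of genes called there were 1 with all deposited barcodes, 1 without mitochondrial and ribosomal protein genes, and 338 by DESeq2. HDAC4 in E6R against TSA turned to 0.063 with total counts only, 0.14 without the filter and 0.0046 with library sums thinned to the smallest. In E6R against TSA, cells thinned to 1000 UMIs left 4171 genes called.

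With 1 library left out in turn, genes called ran from 1416 to 6028 in TSA against DMSO, 0 to 3 in E6R against DMSO and 2628 to 6385 in E6R against TSA. Members called ran from 1 to 3 in TSA against DMSO. Log2 values ran from -0.063 to 0.021 (HDAC5), -0.29 to 0.21 (HDAC6) and -0.92 to 0.39 (HDAC7) in E6R against DMSO, and from -0.17 to 0.024 (HDAC4) and -0.59 to 0.59 (HDAC10) in E6R against TSA. Members called in TSA against DMSO fell to 1 without TSA replicate 1 and without TSA replicate 2 (HDAC7 each time). The cause of these changes was not tested. With a replicate block, edgeR called 6047, 19 and 7567 genes in TSA against DMSO, E6R against DMSO and E6R against TSA, and 3, 0 and 4 members (HDAC9 in E6R against DMSO at adjusted p = 0.0735). Deviations of same-numbered libraries correlated at r = 0.242, 0.564 and 0.166 over genes in these comparisons, and with 2 numbers the libraries share only a number. Shares moved by more than the spread in 27 thinned detection values, against 120 that did not, and in 3 composition values, against 123. Depth limits HDAC10 and HDAC11, with 16 to 40 UMIs per DMSO library.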
